A study of Cucumis sativus with 11 samples.

Results

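Cucumber leaves that had received salt and silicon together were compared with untreated control leaves, 3 libraries against 3, out of 11 libraries in the series. In the salt plus silicon group the nutrient solution held 75 mM sodium chloride and 0.3 mM silicon, supplied as sodium silicate, and in the control group neither was added. The other libraries came from plants given salt alone (75 mM, 3 libraries) or silicon alone (0.3 mM, 2 libraries). All plants were the cultivar JinYou 1 in hydroponic culture, the most recently fully expanded leaves were taken after 3 days of treatment, and each library was made from 3 combined leaves. A gene was tested where it reached 1 RPKM (read counts corrected for the gene's length and the library's size) in at least 2 of the 6 compared libraries. Of 20165 listed genes, 16628 met this, and of the other 3537 genes 605 were listed at 0 in all 6 libraries. The filter was met through salt plus silicon libraries alone by 283 genes and through control libraries alone by 204 genes. The files give gene IDs without names and none of the IDs was in the reference table, so gene functions are not described, 2 IDs are named in each direction, and the leaf label could not be checked against leaf genes. Salt and silicon were added together here, so this comparison alone cannot tell the effect of one from that of the other.

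Sodium chloride in the root zone lowers the water potential that roots must overcome and brings sodium and chloride into the shoot, where they can disturb potassium supply, photosynthesis and growth. Plants answer with changes in ion transport, in compatible solutes, in hormones such as abscisic acid and in the removal of reactive oxygen species. Silicon is taken up as silicic acid and deposited in leaf tissue, cucumber takes up more of it than many other dicots, and it is known for easing salt stress. The comparison asks how far leaves under both treatments stood from leaves that had never been stressed.

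With salt plus silicon, 880 genes rose and 277 fell against control, which together were 1157 of 16628 tested genes (6.96%; 5.29% higher and 1.67% lower). The 880 genes that rose had a median log2 change of 1.06, and the 277 that fell had one of -1.41, beside a median of 0.15 over all tested genes. Changes of 2-fold or more made up 491 of the higher and 210 of the lower calls (701 genes, 4.22% of those tested). Changes of 4-fold or more made up 130 and 59, and changes of 8-fold or more 53 and 9. Among the calls, 14 higher genes were listed at 0 in all control libraries and 3 lower genes in all salt plus silicon libraries, and their fitted size depends on the pseudocount. Without these genes the medians were 1.05 and -1.41, and 44 higher and 7 lower genes changed by 8-fold or more. Other calls that met the filter through 1 group alone, with some value above 0 in the other group, stay in these numbers. They were not counted apart, although the filter favours a difference in them. The typical gene that rose stood at 21.6 RPKM with salt plus silicon and at 8.52 RPKM in control, and the typical gene that fell stood at 13.3 RPKM with salt plus silicon and at 40.1 RPKM in control (medians of group means). The 3 salt plus silicon libraries were all above the 3 control libraries in 3799 tested genes (22.8%) and all below them in 1666 (10.0%), together 5465 (32.9%), and all 1157 called genes were among these. Genes were called by limma at a Benjamini-Hochberg adjusted p under 0.05, from a fit of all 11 libraries on log2(RPKM + 1), a scale that understates changes of low genes. In bulk leaf RNA, a change in the share of a cell type cannot be told apart from a change of RNA per cell.

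The genes that rose took up a larger part of the deposited signal and the genes that fell a smaller one. The 880 higher genes held 6.17%, 5.75% and 7.29% of the summed RPKM in the salt plus silicon libraries, against 2.38%, 2.24% and 1.94% in control libraries 1, 2 and 3. The 277 lower genes held 3.42%, 3.59% and 2.35% in the salt plus silicon libraries, against 5.90%, 7.44% and 6.97% in the control libraries. The groups did not overlap in either set, but the sets were chosen from these libraries, so these shares describe the size of the change and do not test it.

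**Figure D1:**
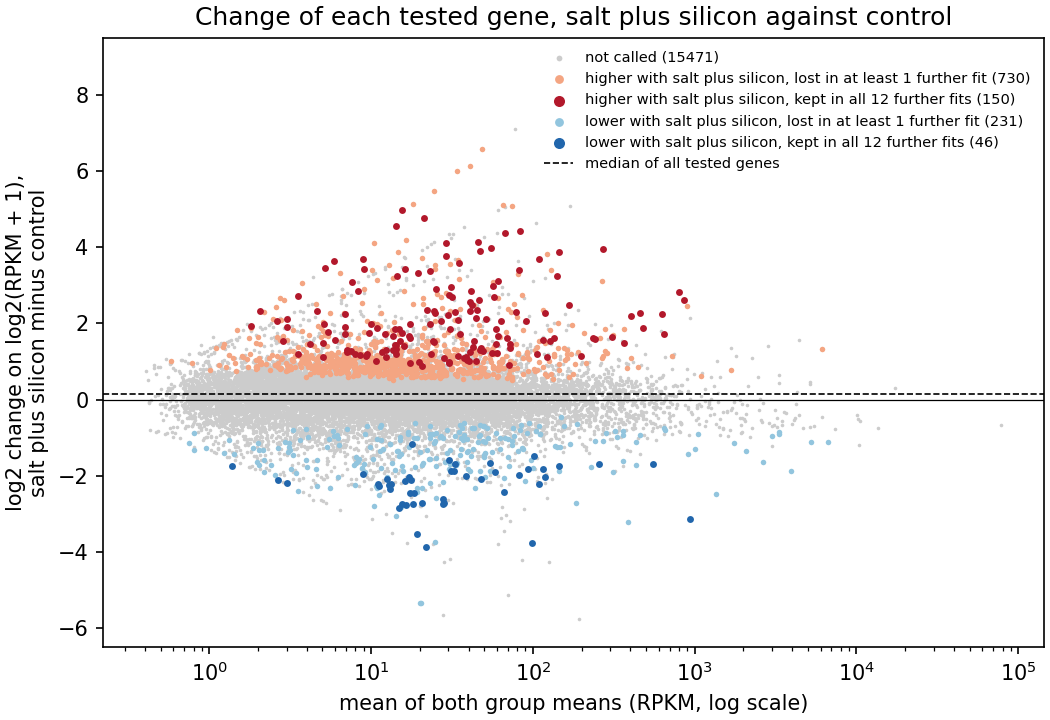
The log2 change of each of the 16628 tested genes (salt plus silicon minus control, vertical axis) is plotted against the mean of the group means in RPKM (horizontal axis, log scale). Dark points are the 150 higher and 46 lower calls kept in all 12 further fits, pale points are calls lost in at least 1 of them (the 6 libraries alone, and each of 11 libraries left out in turn), and the dashed line is the median of all tested genes at 0.15.

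How many genes were called changed strongly when single libraries were left out. Without salt plus silicon 1, 2 or 3, the calls fell to 381, 462 and 231 genes, and without control 2 or 3 to 317 and 669, while without control 1 they were 1151. Without salt 2 they rose to 1481, and without salt 1 or 3 they were 977 and 868. Any fit with a library left out also has fewer degrees of freedom, and why the counts moved was not tested. With the 6 libraries fitted alone, limma called 642 genes (3.86%), 442 higher (2.66%) and 200 lower (1.20%). Of the genes called with all libraries, 398 of the 880 higher (45.2%) and 152 of the 277 lower (54.9%) were called in that fit too.

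The surplus of higher over lower genes depended on how the libraries were scaled. As deposited, 76.1% of calls were higher. After median-of-ratios scaling, which put the median log2 change over the tested genes at -0.01 in place of 0.15, 481 genes were higher and 467 lower (50.7% higher), and after quantile normalization 538 were higher and 391 lower (57.9% higher, median of all genes 0.02). All 880 higher and all 277 lower genes kept their direction under both scalings. Median-of-ratios scaling kept the call for 480 of the higher and 272 of the lower genes, and quantile normalization kept it for 528 and 248.

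**Figure D2:**
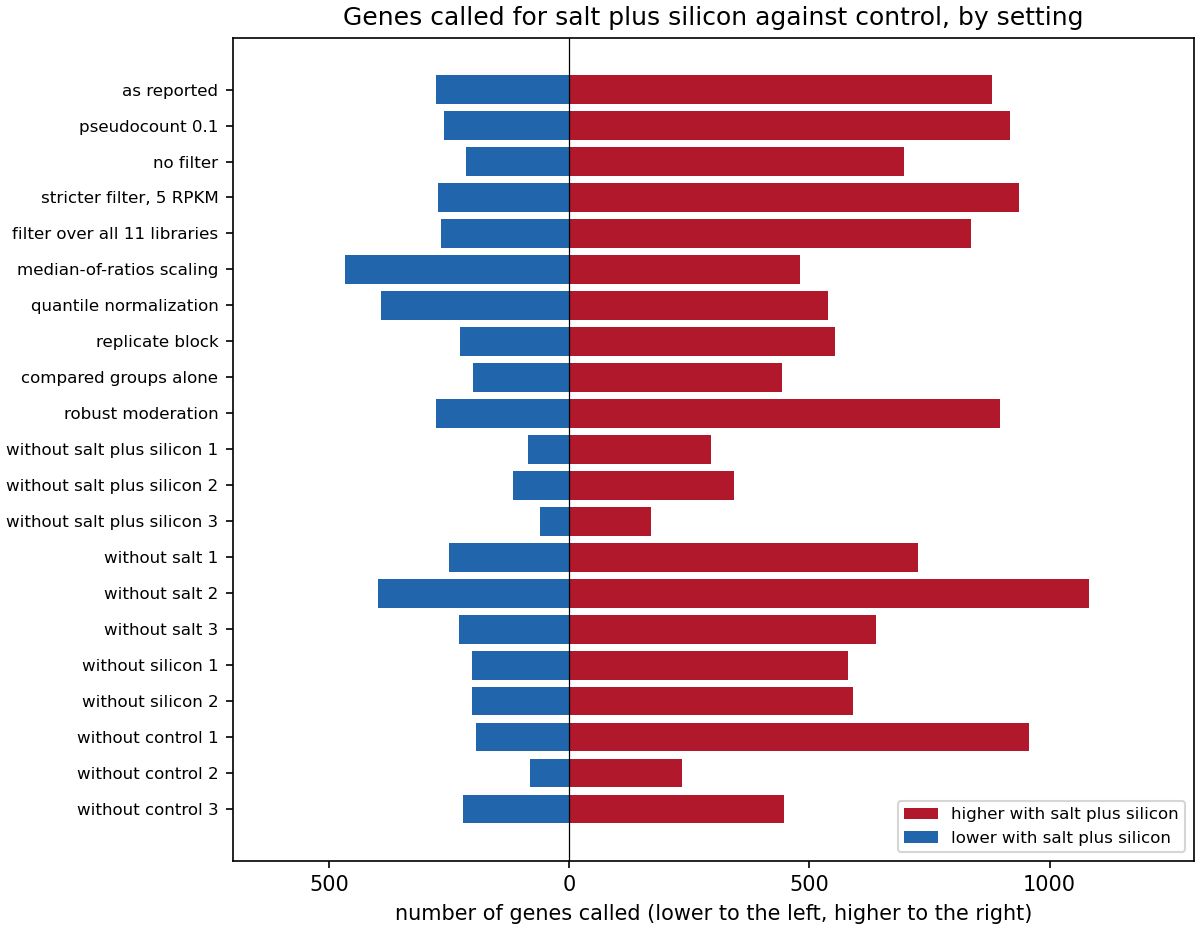
Bars give the number of genes called higher (right) and lower (left) with salt plus silicon against control under each way of processing. The count as reported is 880 higher and 277 lower, the lowest total is 231 without salt plus silicon 3, and the sides come closest to equal after median-of-ratios scaling (481 and 467).

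A smaller set of genes did not depend on any single library. In 150 of the 880 higher and 46 of the 277 lower genes, the call and its direction were kept with the 6 libraries fitted alone and with each of the 11 libraries left out in turn. These 196 genes (1.18% of those tested) had larger changes than the calls as a whole, with a median log2 change of 1.85 in the higher and -2.13 in the lower genes. A gene with a large change and a small spread is more likely to be kept, so this difference in size follows from the choice. All but 1 of the 150 higher genes and all 46 lower genes also kept the call under both scalings. In 121 of the 150 higher genes, every salt plus silicon library was at least 2-fold above every control library, and in 42 of the 46 lower genes every one was at least 2-fold below. Among the 141 higher genes above 0 in all 6 libraries, the ratio of the lowest salt plus silicon library to the highest control library had a median of 2.63 and a range of 1.54 to 21.0. Among the 45 such lower genes, the ratio of the lowest control library to the highest salt plus silicon library had a median of 3.06 and a range of 1.88 to 11.8. Over all calls, such a 2-fold gap between every pair was found in 257 of the 880 higher and 112 of the 277 lower genes. No such share over all tested genes was computed. The genes were chosen from these same libraries, so the gaps describe the kept genes and do not test them. In 36 of the 150 higher and 12 of the 46 lower kept genes the group with more RNA averaged 100 RPKM or more. It averaged under 5 RPKM in 4 and 2 of them. These levels were not counted in the same way over all tested genes, so they describe the kept genes alone.

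Named IDs were taken from those kept genes that were above 0 in all 6 libraries, as the largest log2 change and then the largest difference in RPKM in each direction. Csa3G818250 rose most on the log2 scale among the 141 such higher genes. With both treatments its level was 135, 129 and 214 RPKM in libraries 1, 2 and 3, against 3.53, 8.21 and 7.96 RPKM in the control libraries. The lowest treated library was thus more than an order of magnitude above the highest control library. Csa3G818250 averaged 160 ± 47.2 RPKM with salt plus silicon and 6.57 ± 2.64 RPKM in control (SD, n = 3 each), a ratio of means of 24.3 and a log2 change of 4.44 ± 0.35 (SE, limma adjusted p = 0.000608). In the plants given a single treatment it stood at 102, 196 and 128 RPKM with salt and at 7.79 and 11.9 RPKM with silicon. The salt plus silicon and salt libraries overlapped in level, as did the silicon and control libraries.

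Csa7G037540 had the largest gain in RPKM among the kept genes and was already abundant, ranking 112 of all listed genes by its mean over the 11 libraries. With both treatments its level was 1247, 1630.0 and 1561 RPKM, against 235, 289 and 199.6 RPKM in the control libraries. All treated libraries were above all control libraries, and they differed little among themselves. Csa7G037540 averaged 1479 ± 204 RPKM with salt plus silicon and 241 ± 44.8 RPKM in control (SD, n = 3 each), a ratio of means of 6.14 and a log2 change of 2.62 ± 0.30 (SE, limma adjusted p = 0.00307). With salt alone it was at 1087, 2553 and 2040.3 RPKM, a wider spread than with both treatments, and with silicon alone at 255 and 318 RPKM. Here too the salt plus silicon and salt libraries overlapped, and so did the silicon and control libraries.

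Csa6G497240 fell most on the log2 scale among the 45 such lower genes. With both treatments its level was 1.05, 2.16 and 2.29 RPKM, against 56.5, 27.0 and 41.5 RPKM in the control libraries. No treated library came near the lowest control library. Csa6G497240 averaged 1.84 ± 0.679 RPKM with salt plus silicon and 41.7 ± 14.8 RPKM in control (SD, n = 3 each), a log2 change of -3.88 ± 0.34 (SE, limma adjusted p = 0.00083). The mean was 22.7-fold lower with salt plus silicon. With salt alone it was at 2.05, 3.48 and 1.11 RPKM, which overlapped the libraries with both treatments. With silicon alone it was at 76.5 and 79.0 RPKM, above all 3 control libraries.

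Csa2G055570 had the largest loss in RPKM among the kept genes and ranked 179 of all listed genes by its mean. With both treatments its level was 254, 153 and 173 RPKM, against 1513, 1526 and 1957 RPKM in the control libraries. The groups were far apart, and control 3 was the highest library of all. Csa2G055570 averaged 193 ± 53.3 RPKM with salt plus silicon and 1665 ± 253 RPKM in control (SD, n = 3 each), a log2 change of -3.12 ± 0.33 (SE, limma adjusted p = 0.00236). The mean was 8.62-fold lower with salt plus silicon. With salt alone it was at 269, 227 and 109 RPKM, which overlapped the libraries with both treatments. With silicon alone it was at 771 and 576 RPKM, below every control library and above every library that had received salt.

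**Figure D3:**
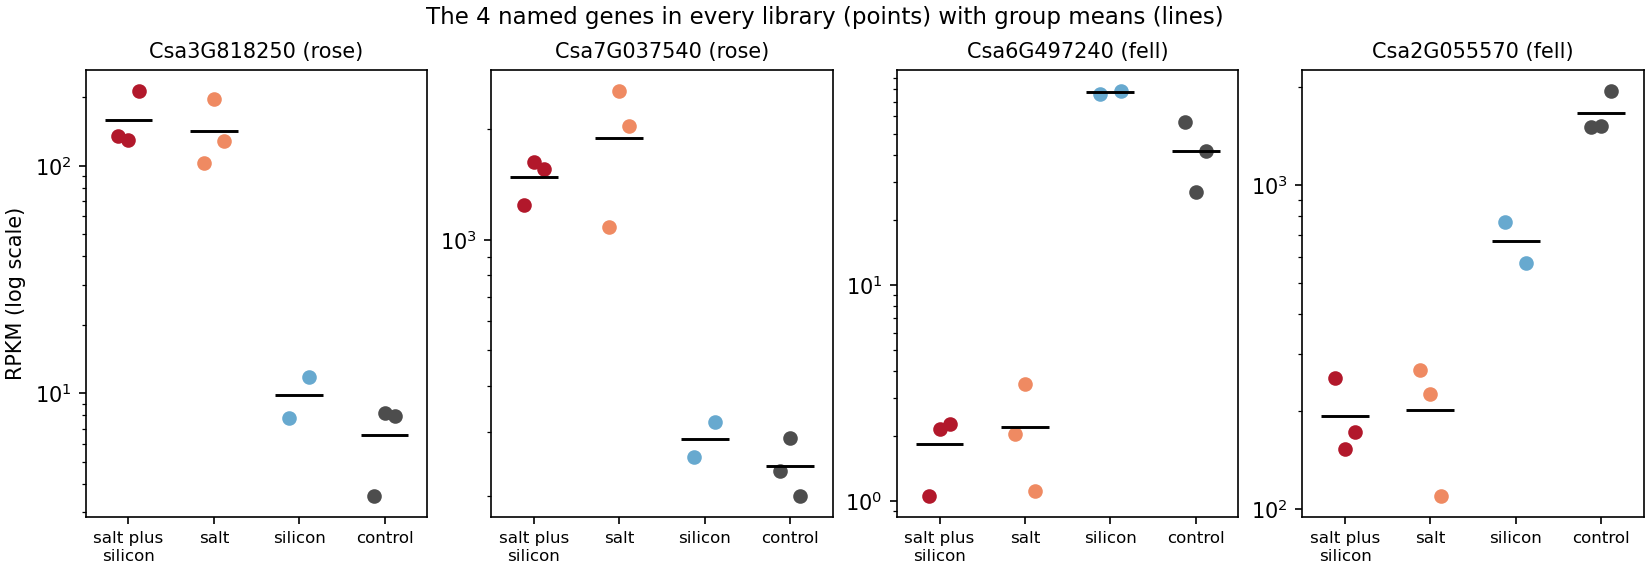
RPKM (log scale) of the 4 named genes in each of the 11 libraries, by group, with points for libraries and lines for group means (3 libraries a group, 2 for silicon). Csa3G818250 and Csa7G037540 were higher in every salt plus silicon library than in every control library, and Csa6G497240 and Csa2G055570 were lower, with salt libraries overlapping the salt plus silicon libraries in all 4 genes.

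The 5 libraries with a single treatment took no part in the difference by which genes were called, so the levels of the called genes in salt and silicon libraries can be compared with each other. The 880 higher genes had a library median of 19.8, 20.9 and 19.4 RPKM with salt and of 14.0 and 12.4 RPKM with silicon. They stood at 19.99, 20.5 and 24.5 RPKM with both treatments and at 9.09, 7.90 and 8.10 RPKM in control. The salt medians lay beside those with both treatments, and the silicon medians lay between salt and control. The 277 lower genes had medians of 11.98, 12.6 and 9.35 RPKM with salt and of 27.1 and 31.5 RPKM with silicon, with 14.2, 13.4 and 10.8 RPKM under both treatments and 40.3, 39.9 and 37.9 RPKM in control. Here too the silicon medians lay between those of the salt-treated groups and control. The genes were chosen by the difference between salt plus silicon and control, so those groups stand apart by the choice. A library outside the choice can fall between them through the choice alone, so the place of the silicon medians does not measure a partial effect. Silicon against control was not tested here.

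**Figure D4:**
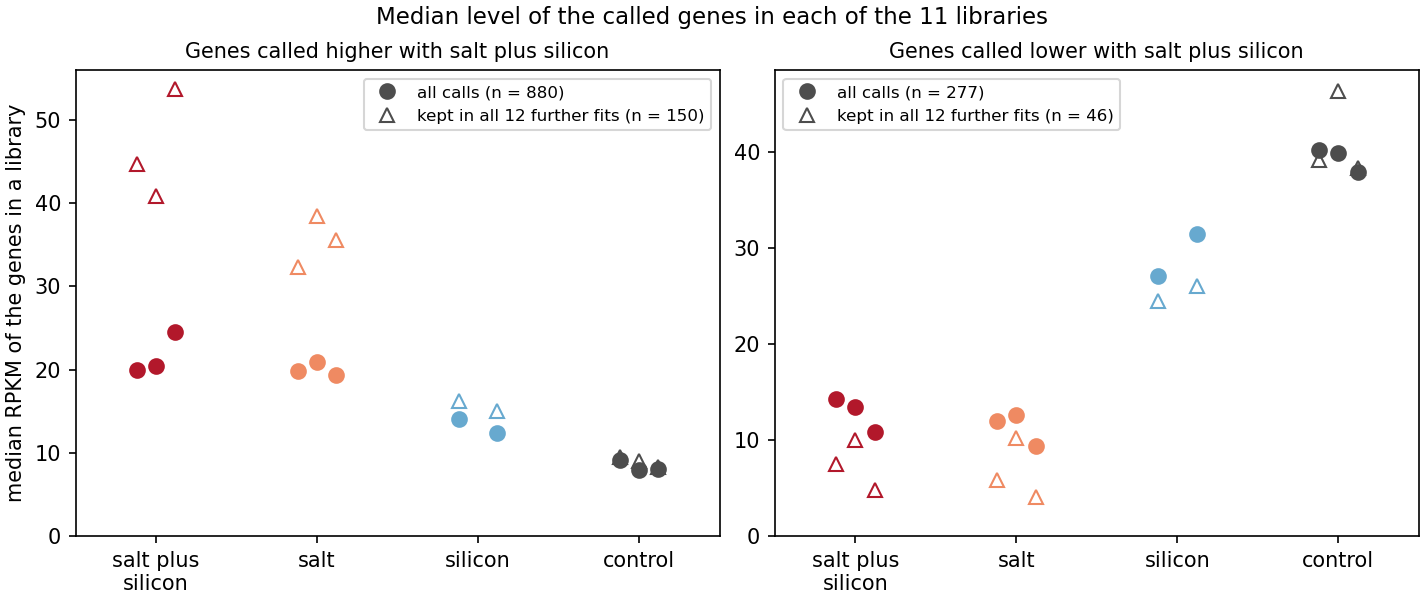
Median RPKM of the genes called higher (left) and lower (right) with salt plus silicon against control, in each of the 11 libraries, for all calls (circles) and for calls kept in all 12 further fits (triangles). The median of the 880 higher genes lies between 19.4 and 20.9 RPKM in salt libraries and at 14.0 and 12.4 RPKM in silicon libraries, and that of the 277 lower genes lies between 9.35 and 12.6 and at 27.1 and 31.5 RPKM.

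Tested gene by gene, salt libraries differed from silicon libraries in the direction of the combined treatment for a part of the called genes. Of the 880 higher genes, 199 (22.6%) were higher in salt than in silicon and 7 (0.795%) lower, beside 2.18% higher and 6.58% lower among all tested genes (8.76% in either direction). Of the 277 lower genes, 125 (45.1%) were lower in salt than in silicon and none was higher. The median log2 difference of salt minus silicon was 0.50 in the higher genes, -1.04 in the lower genes and -0.03 in all tested genes. Both comparisons came from 1 limma fit with a shared spread, so genes with a small spread are more often called in both. Counted by overlap alone, all 3 salt libraries were above both silicon libraries in 552 of the 880 higher genes (62.7%) and below them in 36 (4.09%). Among all tested genes these shares were 17.2% and 22.3%. In the 277 lower genes the salt libraries were below both silicon libraries in 202 (72.9%) and above them in 4 (1.44%). The called genes were still chosen with the shared spread, and libraries of a small spread overlap less often. These shares are therefore not free of that choice.

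The genes kept in every fit gave these counts too. Of the 150 higher genes, 83 (55.3%) were called higher in salt than in silicon and 0 lower, and of the 46 lower genes 34 (73.9%) were called lower and 0 higher. Among all tested genes 2.18% were higher and 6.58% lower in salt than in silicon. Genes with a small spread, also in salt and silicon libraries, are more likely to be kept, so these larger shares can follow in part from the choice. The limma difference of salt minus silicon was 3.70 ± 0.39 (SE, log2, adjusted p = 0.00157) for Csa3G818250 and 2.64 ± 0.33 (adjusted p = 0.00269) for Csa7G037540. It was -4.68 ± 0.38 (adjusted p = 0.000596) for Csa6G497240 and -1.82 ± 0.37 (adjusted p = 0.0155) for Csa2G055570. The counts of 199 and 125 genes changed when single libraries were left out. They were 47 and 44 without silicon 1, 51 and 44 without silicon 2, 100 and 73 without salt 3, and 105 and 49 without control 2. They were 104 and 49, 114 and 63, and 83 and 38 without salt plus silicon 1, 2 and 3, and the lower count was 79 without control 1. With each comparison fitted on its own libraries alone, 41 and 32 genes were called in both.

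About as many genes could be bounded as could not. For 8415 tested genes (50.6%), the 95% interval of the change between salt plus silicon and control excluded both a doubling and a halving of RPKM + 1. For 1923 of them (11.6% of those tested) it lay within 1.5-fold. In low genes a doubling of RPKM is a smaller step on this scale, so it need not be excluded there. With a pseudocount of 0.1 in place of 1, 6699 genes were bounded within 2-fold. Of the 8415 genes, 52 were also called, so their changes passed the test but were smaller than 2-fold on the scale of RPKM + 1. For 7108 genes (42.7%), the gene was neither called nor bounded within 2-fold, so the intervals of these genes take in changes of 2-fold or more, and a change of that size is neither shown nor excluded.

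Low genes were called less often, and their intervals were wider. Below a mean of 5 RPKM over the 11 libraries, 116 of 4095 genes rose and 38 fell (3.76% called). From 5 to 20 RPKM, 373 of 6067 rose and 79 fell (7.45%), and from 20 to 100 RPKM, 309 of 4964 rose and 118 fell (8.60%). At 100 RPKM or more, 82 of 1502 genes rose and 42 fell (8.26%). The median SE of the log2 change was 0.31 in the lowest and 0.24 in the highest of these classes, and the share bounded within 2-fold was 38.5% and 54.4%. The median log2 change was 0.21 in genes of 5 to 20 RPKM and 0.02 in genes of 100 RPKM or more, so the upward shift of the deposited values was found in low and middle levels.

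The 100 genes with the highest means held less of the summed signal with salt plus silicon. Their share was 36.2%, 34.7% and 31.7% in the salt plus silicon libraries, against 36.5%, 45.4% and 41.9% in the control libraries. The groups did not overlap, although salt plus silicon 1 and control 1 were close. The mean share was 34.2% ± 2.27 with salt plus silicon and 41.3% ± 4.48 in control (SD, n = 3 each; exact two-sided permutation p = 0.10, the smallest that 3 against 3 can give). Of these 100 genes 3 rose and 10 fell by the limma test, where 5.29% of all tested genes rose and 1.67% fell. The change was bounded within 2-fold for 38 of them, against 50.6% of all tested genes, and the median log2 change was -0.47. The summed RPKM was not the same in every library. It was 992055, 1000240 and 996057 in the salt plus silicon libraries, against 1117430, 1107510 and 1062790 in the control libraries. A smaller share of the highest genes therefore need not go with larger values of the others. The part of this share in the surplus of higher genes was not tested.

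The libraries with salt plus silicon were more alike than the control libraries. The SD of log2 differences over the tested genes was 0.668 to 0.736 between salt plus silicon libraries and 0.815 to 0.925 between control libraries, and 0.868 to 1.06 across the groups. The SD over the 3 libraries had a median of 0.232 with salt plus silicon and 0.317 in control, and it was larger in control for 11056 of the tested genes (66.5%). Values were not scaled, so this SD over libraries also takes in shifts of whole libraries. The median log2 difference was 0.26 between control 1 and 2 and -0.11 between salt plus silicon 1 and 3. In the 880 genes that rose, the control library nearest to the treated ones was control 1 in 494 (56.1%), and the treated library nearest to the control ones was salt plus silicon 3 in only 120 (13.6%). In the 277 genes that fell, control 3 was the nearest control library in 138 (49.8%), and salt plus silicon 3 was the nearest treated library in 41 (14.8%). Among called genes, salt plus silicon 3 was thus the treated library least often nearest to control in both directions. Without it the calls were 171 higher and 60 lower. The genes were called from these same unscaled libraries, and no such shares over all tested genes were computed. Control 1 stood above control 2 and control 3 by median log2 differences of 0.26 and 0.13 over the tested genes. How far such shifts set which library is nearest was not tested.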

How the data were processed

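Per the labels' protocols, leaf poly(A) RNA went into libraries without strand information, so overlapping genes on opposite strands are not told apart. TopHat2 is among the tools, per the submitters' processing notes. For its version and settings, the counting program, the annotation and the genome build, the answer is not given in the sources used here. Deposited by the authors was 1 RPKM value per gene ID and library. Counts were not used, so the depth in reads is unknown and neither counting intervals nor floors are given. Genes under 0.1 RPKM gave a depth relative to control 1 of 0.953 to 1.14 in the salt plus silicon and 0.966 to 1.03 in the other control libraries, by a method that keeps ratios near 1 only. A value of exactly 0 may be a failed estimate and is called listed at 0. Any 2 libraries had at most 1 identical value above 0.

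Values were used as deposited, as log2(RPKM + 1). The 11 libraries were fitted by group in limma 3.58.1 (R 4.3.3) with a trended prior variance and 7 residual degrees of freedom (4 with the 6 libraries alone). All p-values are two-sided, and adjusted ones use the Benjamini-Hochberg method over the 16628 tested genes. Each library is a biological replicate of 3 leaves per the labels, which do not say whether replicates came from separate containers, so p-values measure the spread between these samples. Python 3.11.15, pandas 2.3.3, numpy 2.4.6, scipy 1.17.1 and matplotlib 3.10.9 were used for tables, permutation tests and plots.

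The IDs matched 0 of 23999 genes of the reference table, also after the locus tag separator was dropped, so gene lists by product name could not be used. The named genes are 2 that rose and 2 that fell, among calls without overlap and above 0 in all 6 libraries that kept the call in 12 further fits (the 6 libraries alone and each of 11 libraries left out). The first in each direction has the largest log2 change, the second the largest RPKM difference. Other alternatives were a pseudocount of 0.1, no filter, filters of 5 RPKM or over all 11 libraries, 2 scalings, robust moderation and a replicate block. Members, tests and rules were chosen with earlier results of these data known.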

Additional observations from a re-analysis of the deposited data

How the results depend on the processing

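For the 4 named genes, all 80 alternative values (20 for each gene) kept the direction and the call. These genes were chosen for keeping the call in 12 of the 20 settings, so only the remaining settings could have turned out otherwise. The count of 1157 genes for salt plus silicon against control became 642 with the 6 libraries alone and ran from 231 to 1481 with 1 library left out, and the other alternatives gave 912 to 1210 apart from the replicate block (782), with the balance after scaling given above. The count for salt against silicon was 1456 genes (362 higher and 1094 lower in salt). It became 615 with the compared groups alone and ran from 368 to 1630 with 1 library left out, and quantile normalization made the balance 795 higher and 958 lower, the compared groups alone 75 and 540. Genes higher in both comparisons (199) became 41 with the compared groups alone and 112 with a replicate block, and ran from 47 to 227 with 1 library left out. Genes lower in both (125) became 32 with the compared groups alone and ran from 38 to 183. These settings for the counts over both comparisons were chosen after seeing the data. Where a left-out library leaves silicon with 1 library, that library is assumed to vary like the other groups. The number of genes bounded within 2-fold ran from 6603 to 9202, and the difference in the share of the 100 highest genes was -7.08 percentage points and stayed negative, from -9.45 to -5.01 with 1 library left out and -4.29 for the 20 highest genes. Why the counts moved was not tested, beyond the fact that fits with fewer libraries have fewer degrees of freedom.

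A replicate block gave 782 genes for salt plus silicon against control. Deviations from the group means of same-numbered salt plus silicon and control libraries correlated at -0.01, -0.07 and 0.06. Libraries with unlike numbers correlated at -0.16 to 0.20. These values show no pairing by number, but 3 libraries a group are too few to exclude one. Depth is unknown, and genes of low RPKM are those with the widest intervals.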

Other observations

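Some tested genes had values in 1 of the compared groups only. Listed at 0 in all 3 control libraries were 83 tested genes, of which 23 were above 0 in all 3 salt plus silicon libraries, 18 were at 1 RPKM or more in all 3, and 14 were called higher (5.29% of all tested genes were). Their salt plus silicon means had a median of 4.95 RPKM and reached 155 RPKM. Listed at 0 in all 3 salt plus silicon libraries were 41 tested genes, of which 6 were above 0 in all 3 control libraries and 3 were called lower (1.67% of all tested genes were), with control means of 4.13 RPKM at the median and up to 140.2 RPKM. Of the 83 genes, 64 had a value above 0 in at least 1 salt library and 43 in at least 1 silicon library, and of the 41 genes 25 and 25. These genes passed the filter only through the group with values, so they had to differ, and their fitted changes depend on the pseudocount.

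In IDs of this format the digit after Csa stands for the chromosome and the numbers run along it. The share of tested genes called higher was 4.82% for IDs with digit 6 and 6.18% for digit 7, with the other digits between, and the share called lower was 1.47% for digit 5 and 1.86% for digit 6, with the others between. Calls were thus spread over all 7 digits. Of the 880 higher genes, 149 (16.9%) had another higher gene as the next tested ID on either side, beside 10.3% of all tested genes that had such a neighbour. Of the 277 lower genes, 24 (8.66%) had a lower gene next to them, beside 3.29% of all tested genes. The higher genes formed 71 runs of neighbours, 6 of them of 3 genes or more, and the longest held 4 genes, all with digit 6 and with log2 changes of 1.02 to 2.20. Whether neighbours are copies that share reads was not tested, and no chance level was computed for these shares.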
